A study of Mus musculus with 8 samples.

Results

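Alveolar macrophages sorted from the lungs of naive, tumor-free, wild-type C57BL/6 mice made up 3 of the 8 RNA-sequencing libraries of a study of tissue-resident macrophages in early lung tumors. These 3 libraries, called naive replicates 1, 2 and 3, were chosen by their labels alone, and no contrast with the other 5 libraries, from mice bearing KP lung tumor cells, is made here. Each library started from 20000 sorted cells and 1 ng of RNA, amplified with the SMART-Seq v4 kit for low input. No source used here states the sort markers or the age and sex of the mice. Whether the 3 libraries came from separate animals is not stated either, so their spread may be technical.

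Alveolar macrophages live on the inner surface of the airspaces, where they take up inhaled particles, microbes and spent surfactant. They are seeded before and around birth, renew themselves locally, and depend on the cytokine GM-CSF, on TGF-beta and on the transcription factor PPARgamma. Their identity is known from Siglec-F and CD11c (Itgax) at the cell surface, and they are known for a large lysosomal and lipid-handling capacity.

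Levels are given as the deposited value, a read count scaled by the library size the authors used (scaled CPM). Where genes are set against each other, the level is divided by the length of the gene's combined exons (scaled CPM per kb). Means are given ± SD over the 3 libraries (n = 3), and CV is the SD as a percentage of the mean. The libraries held 28525078, 38561195 and 27465745 reads in 12701 genes, of which 12554, 12600 and 12570 had at least 1 read. A gene with 0 reads may have had a level of up to 0.101, 0.0741 and 0.106 scaled CPM in replicates 1, 2 and 3, from the 3 reads that a count of 0 allows. Intervals and limits of this kind cover counting error only, and no source used here mentions molecular identifiers. Replicate 1 stood apart: its Spearman correlation with the others across the 12701 genes was 0.992 and 0.992, against 0.995 between replicates 2 and 3, and its immediate-early genes and mitochondrially encoded mRNAs were lower. Genes within a library share its depth and handling and are not independent replicates. Where a summed level, or a count over all genes, rests on replicate 1, it is given with and without that library. CVs and counts within single lists include replicate 1.

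The identity markers were among the most abundant transcripts. Lyz2, the lysozyme of macrophages that cuts bacterial cell walls, was first in each library, at 38834, 42738 and 42889 scaled CPM in replicates 1, 2 and 3. It held 4.05%, 4.49% and 4.42% of the summed level. Chil3, a secreted chitinase-like lectin, was second in each library at 25670.1, 17922 and 22646 scaled CPM, and its libraries differed more (CV 17.7%) than those of Lyz2 (CV 5.54%). Itgax, the CD11c integrin chain, was at 849, 845 and 830.2 scaled CPM, with a CV of 1.17%. Siglecf, a sialic acid-binding receptor, was at 750.1, 679 and 729 scaled CPM. All 4 markers named for these cells were thus at high level in each library. Per length, Lyz2 ranked 1, Chil3 2, Siglecf 122 and Itgax 203 of 12698 genes with an annotated length. With the median transcript length in place of the combined exons, Siglecf ranked 292 and Itgax 281, so the order of the last pair depends on the length used.

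The 3 promoters of the secreted products that led the ranking are shown because each held the same short motif. Lyz2 lies at chr10:117277331-117282321 on the minus strand (GRCm38), and Chil3 at chr3:106147554-106167564, also on the minus strand. The sequences are the 250 bases before the RefSeq start (GRCm38.p6), read 5′ to 3′ on the gene's strand, at chr10:117282273-117282522 for Lyz2, chr3:106167565-106167814 for Chil3 and chr11:83593088-83593337 for the chemokine Ccl6. Capitals mark ACTTCCT, the reverse complement of AGGAAGT, a core bound by ETS factors such as PU.1 (Spi1), the master regulator of macrophages.
Lyz2: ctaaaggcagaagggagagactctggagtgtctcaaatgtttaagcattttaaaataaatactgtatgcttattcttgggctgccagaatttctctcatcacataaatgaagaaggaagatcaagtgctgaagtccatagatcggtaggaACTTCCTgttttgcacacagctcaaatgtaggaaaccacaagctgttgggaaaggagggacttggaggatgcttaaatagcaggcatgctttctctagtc
Chil3: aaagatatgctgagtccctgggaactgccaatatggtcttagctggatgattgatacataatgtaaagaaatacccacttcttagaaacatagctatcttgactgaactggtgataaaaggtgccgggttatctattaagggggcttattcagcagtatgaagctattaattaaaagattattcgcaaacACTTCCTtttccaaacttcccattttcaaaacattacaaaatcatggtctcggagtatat
Ccl6: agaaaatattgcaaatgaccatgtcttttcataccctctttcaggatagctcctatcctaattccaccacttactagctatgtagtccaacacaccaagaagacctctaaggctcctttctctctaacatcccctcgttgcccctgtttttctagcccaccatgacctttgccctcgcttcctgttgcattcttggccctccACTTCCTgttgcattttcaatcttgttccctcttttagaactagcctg
The matches began 100, 60 and 48 bases before the start. AGGAAGT, searched on both strands, was present in 9.21% of the 10055 genes of the table with a promoter entry and in 7 of 81 (8.64%) of the 100 genes with the highest level per length that had one. The share among the most abundant genes was near that of all genes, and a match describes letters, not binding. TATAAA, searched on the gene's strand in the last 100 bases, was found in 2.30% of all genes and in 10 of the 81 (12.3%), among them Anxa1, Anxa2, H2-D1, Plet1, Prdx1 and Vim. The 81 were picked by level per length, so these shares describe them and were not tested. Matches of 2 different motifs overlapped in 4 promoters of all those searched.

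Below Lyz2 and Chil3, expression was spread over many genes. The most abundant gene held 4.32% ± 0.235 of the summed level, the first 10 held 10.9% ± 0.323, the first 100 held 25.7% ± 0.552 and the first 1000 held 59.0% ± 0.423. By mean level 608 genes were needed to reach 50% (616, 616 and 588 in replicates 1, 2 and 3). A level of at least 1000 scaled CPM was reached by 93 genes (0.732%), at least 100 by 2006 (15.8%), at least 10 by 8224 (64.8%) and at least 1 by 10873 (85.6%). The median gene was at 22.1 scaled CPM and 4.73 scaled CPM per kb. Of the 12698 genes with an annotated length, 12685 were protein-coding. Medians, ranks and shares here refer to the genes the deposited table holds, not to all genes. The same 20 genes were the 20 most abundant in each of the 3 libraries, and 85 genes were shared by the 3 lists of the first 100. For 32 genes of the table no naive library had a read.

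**Figure D1:**
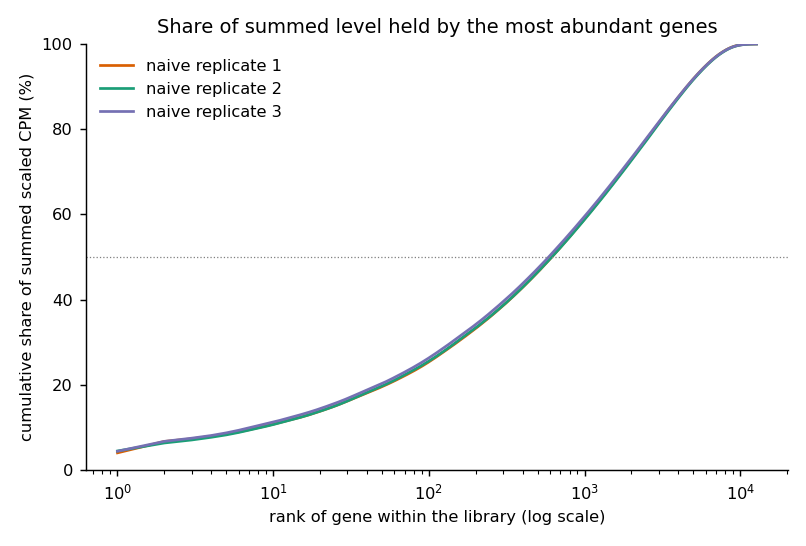
Cumulative share of the summed scaled CPM (%) against the rank of the gene within its library (log scale), 1 line per naive library. The lines lie on each other, starting at 4.05%, 4.49% and 4.42% for the first gene and crossing 50% at 616, 616 and 588 genes.

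The 20 most abundant genes included secreted, lysosomal, cytoskeletal, iron-storing and membrane proteins. Behind Lyz2 and Chil3 came Fth1, the ferritin heavy chain that stores iron, at 6103, 6734 and 7255 scaled CPM, and Ccl6, a chemokine, at 5574, 6007 and 6044. The cytoskeletal genes were Actb (beta-actin), Tmsb4x (thymosin beta 4, which binds free actin), Lcp1 (the actin bundler L-plastin) and Iqgap1 (a scaffold at the cell cortex). Lcp1 differed least, at 3794, 3800.2 and 3799 scaled CPM. The lysosomal genes were Ctsd, Ctss and Ctsc (proteases), Psap (prosaposin, the source of lipid-hydrolysis cofactors) and Laptm5. Ctsd stood at 4573, 4519 and 4796 scaled CPM and Psap at 4042, 3884 and 3595. Surface and membrane genes were the tetraspanin Cd9 (4812, 5357 and 5808 scaled CPM), Sirpa, H2-D1 and Cybb, the catalytic subunit of the phagocyte NADPH oxidase. Lpl, lipoprotein lipase, was at 3191, 4049 and 4320.3 scaled CPM and lowest in replicate 1. Anxa2, a membrane-binding annexin, and Ucp2, a mitochondrial carrier, completed the 20. Per length, the order of the first 10 was Lyz2 (31525 ± 1747 scaled CPM per kb), Chil3 (13529 ± 2393), Tmsb4x (3919.8 ± 327), Ccl6 (3273 ± 145), Cd9 (2605 ± 244), Ctss (2502 ± 221), Actb (2025 ± 224), Ctsd (1969 ± 62.6), Fth1 (1931 ± 166) and B2m (1828 ± 178). Lyz2 and Chil3 were apart from each other and from the rest by more than their SDs, whereas Cd9 and Ctss differed by less than either SD, and Actb, Ctsd and Fth1 by less than the SD of Actb.

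**Figure D2:**
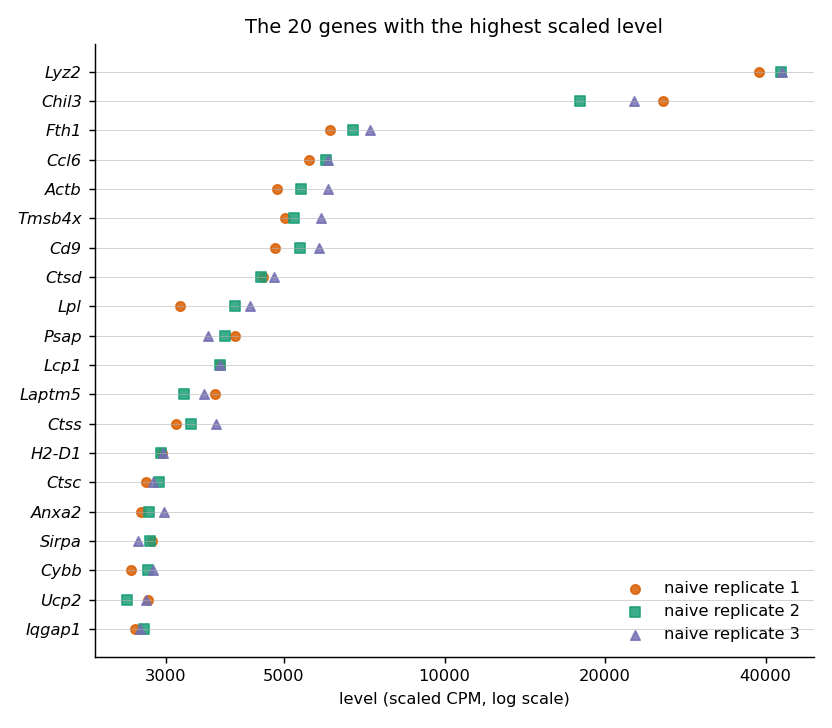
Scaled CPM (log scale) of the 20 genes with the highest mean, 1 symbol per naive library. Lyz2 and Chil3 sit far to the right of the other 18, whose libraries lie close together, with Lpl lowest in replicate 1 and Chil3 lowest in replicate 2.

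Reads shared by near-identical genes limit some of these levels. Of the 50-base windows of Lyz2 transcripts, 15.4% also occur in Lyz1, its gut-type neighbor, which was listed at 16.9, 17.8 and 18.5 scaled CPM. Chil3 shares 17.9% of its windows with Chil4, Ear1 shares 23.8% with Ear2, H2-D1 shares 4.79% with H2-K1 and Csf2rb shares 17.1% with Csf2rb2. No source used here says how reads that fit several places were counted, so these levels are uncertain in that respect. The same holds for genes with many processed copies in the genome, such as Gapdh, Ftl1, Atp6v0c and the ribosomal protein genes.

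The list of alveolar macrophage identity genes stood high as a whole. Of its 27 members, 25 lay above the median gene per length and 10 were among the 100 most abundant per length of 12698 genes. The list median was 241 scaled CPM per kb. This list and those below were chosen with earlier results of these data known, so such counts describe the members chosen and are no test. Ear2, an eosinophil-associated ribonuclease typical of these cells, was at 1209 ± 97.7 scaled CPM per kb and Ear1 at 367 ± 45.2. The proton pump subunit Atp6v0d2 reached 791 ± 26.4, the keratin Krt19 566 ± 19.3 and the surface protein Plet1 469 ± 26.8 scaled CPM per kb. Other markers followed: Car4 (carbonic anhydrase 4) at 298 ± 65.6, Cidec (a lipid-droplet protein) at 271 ± 39.98, Cd2 at 220.1 ± 9.85, the mannose receptor Mrc1 at 215 ± 3.81, the scavenger receptor Marco at 206 ± 11.1 and the keratin Krt79 at 136 ± 3.37 scaled CPM per kb. Mrc1 and Krt79 varied little (CV 1.77% and 2.48%), while Car4, at 439, 679 and 641 scaled CPM, was lowest in replicate 1 (CV 22.00%). Fabp4, a fatty acid-binding protein, was lower than most of the list at 77.2, 76.5 and 71.9 scaled CPM (16.8 ± 0.635 per kb). Kcnip4 (3.59 ± 0.818 scaled CPM per kb) and Ear10 (0.269 ± 0.0908) lay under the median gene.

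Genes of the macrophage lineage at large were well expressed, with 12 of 13 members above the median gene per length. Behind Lyz2, Lgals3 (galectin-3) was at 827 ± 79.9 scaled CPM per kb, Cd68 at 767 ± 80.4, the signalling adaptors Tyrobp and Fcer1g at 720.5 ± 37.3 and 499 ± 49.5, and Adgre1, which encodes the F4/80 antigen, at 135 ± 10.1. Csf1r, the M-CSF receptor, was at 456, 457 and 387 scaled CPM and the efferocytosis receptor Mertk at 449, 481 and 486. Itgam, the CD11b chain carried by monocytes and interstitial macrophages, was low at 1.87, 2.04 and 2.07 scaled CPM. Itgam therefore stood far below Itgax, at 0.396 ± 0.0217 against 175 ± 2.05 scaled CPM per kb. Cd14, the co-receptor for bacterial lipopolysaccharide, was lower in replicate 1 than in the other libraries, at 383, 614 and 595 scaled CPM.

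Among transcription factors, Cebpb led. This bZIP factor, required for alveolar macrophages, reached 1226 ± 37.7 scaled CPM per kb, rank 14 of all genes, at 1826, 1908 and 1799 scaled CPM. Spi1 (PU.1) followed at 216 ± 8.19 and Pparg, the lipid-sensing receptor that fixes alveolar identity, at 112 ± 8.35 scaled CPM per kb. Pparg was at 359, 319 and 314 scaled CPM and its partner Rxra at 328, 284 and 295. Bhlhe40 and Bhlhe41, which restrain other macrophage programs and support self-renewal, were at 313, 525 and 423 and 52.03, 85.9 and 60.9 scaled CPM, both lowest in replicate 1. Egr2, known in alveolar macrophages and also a gene induced by stimulation, was at 210.0, 384 and 358 scaled CPM, and Cebpa went the other way, highest in replicate 1 at 255, 161 and 176. Maf, known to hold back macrophage self-renewal, was low at 0.252, 0.408 and 0.442 scaled CPM. Irf4 (4.75 scaled CPM on average) and Bach2 (1.48) were also low, and Irf8 was steady at 173, 177 and 172 scaled CPM. Of the 21 factors, 16 lay above the median gene per length.

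Both chains of the GM-CSF receptor were well expressed. Csf2ra, the ligand-specific alpha chain, was at 592, 598 and 592 scaled CPM, and its CV of 0.589% was the lowest of the 26 receptor and signalling genes. Csf2rb, the shared signalling chain, was at 598, 624 and 539 scaled CPM. The TGF-beta receptors Tgfbr1 and Tgfbr2 were at 598, 602 and 619.7 and at 609.6, 606 and 555 scaled CPM. Per length the order was Csf2ra (207 ± 1.22 scaled CPM per kb), the interferon-gamma receptor chain Ifngr1 (119 ± 8.74), Stat6 (93.5 ± 5.73), Tgfbr1 (92.8 ± 1.78) and Csf2rb (80.6 ± 5.93), with Csf1r (75.1 ± 6.96) and Tgfbr2 (72.1 ± 3.71) further down. Stat6 and Tgfbr1 did not differ beyond their SDs. The signal carriers Stat5a and Stat5b, used by GM-CSF, were at 11.2 ± 0.903 and 18.3 ± 2.07 scaled CPM per kb. Of the TGF-beta transducers, Smad2 and Smad4 were detected at 86.5 and 75.6 scaled CPM on average, while Smad3 was at 0.622, 1.89 and 0.972. Smad2 was thus far above Smad3 (9.85 ± 0.541 against 0.2095 ± 0.118 scaled CPM per kb). The decoy receptor Il1r2 was at or near the limit of detection, at 0.0841, 0.0124 and 0.0884 scaled CPM. Its value in replicate 2 stands for no reads.

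Genes for surfactant lipid uptake and storage were abundant, with 20 of 22 members above the median gene per length. Plin2, which coats lipid droplets, was at 615 ± 38.1 scaled CPM per kb, ahead of Lpl (368 ± 56.3), Cidec (271 ± 39.98), the lysosomal phospholipase Pla2g15 (242 ± 74.2), Fabp1 (241 ± 22.95) and the fatty acid importer Cd36 (219 ± 17.2). Pla2g15, which degrades surfactant phospholipid, varied among libraries at 928, 488 and 774 scaled CPM, lowest in replicate 2. Lipa, the lysosomal acid lipase, was steadier at 1096, 1117 and 1190.4 scaled CPM. The triglyceride enzymes Dgat2 and Dgat1 were at 39.7 ± 3.398 and 16.8 ± 1.87 scaled CPM per kb. The scavenger receptor Msr1 (4.28 ± 0.733 scaled CPM per kb) and the desaturase Scd1 (4.13 ± 1.504) lay under the median gene. Each was low in all 3 libraries, Msr1 at 22.5, 31.8 and 27.2 scaled CPM.

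Sterol export was led by Abcg1, whose loss is known to cause lipid accumulation in alveolar macrophages. It stood at 1042, 1072 and 1051 scaled CPM (145 ± 2.15 per kb), and the related transporter Abca1 at 114, 156 and 121 scaled CPM (12.6 ± 2.17 per kb). The lysosomal sterol carriers Npc2 and Npc1 were at 55.3 ± 1.59 and 11.05 ± 0.277 scaled CPM per kb, and Soat1, which esterifies cholesterol for storage, at 51.2 ± 0.964. Synthesis genes were below Abcg1, Npc2 and Soat1: Hmgcs1 at 27.02 ± 4.22, Sqle at 12.99 ± 1.37 and Fdft1 at 7.93 ± 1.38 scaled CPM per kb. Apoe, abundant in many other macrophages, was at 46.1, 41.5 and 41.97 scaled CPM, and Apoc1 at 2.71, 2.56 and 3.02. In this list of 17 measured genes, Apoc1 was the member below the median gene per length.

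All 16 genes of fatty acid oxidation lay above the median gene per length, and 15 had a CV under 10%. Etfa, an electron carrier of the pathway, was at 103 ± 6.25 scaled CPM per kb, the thiolase Acaa2 at 94.3 ± 3.697 and Cpt1a, the gate for fatty acid entry into mitochondria, at 74.97 ± 2.88. Cpt1a was at 598, 556 and 565 scaled CPM. For glycolysis, 13 of 16 members with a length value were above the median gene, led by Ldha (253 ± 7.79 scaled CPM per kb), Pkm (125 ± 4.34) and Gapdh (124 ± 10.6). Aldoa, with no length value here, was at 1321, 1319 and 1401 scaled CPM. Hexokinases were lower, with Hk3 at 13.5 ± 0.941, Hk1 at 3.79 ± 0.335 and Hk2 at 3.03 ± 1.03 scaled CPM per kb, and the muscle isoform Pfkm was at 0.353, 1.25 and 0.795 scaled CPM. The list medians were 27.0 scaled CPM per kb for fatty acid oxidation and 16.5 for glycolysis.

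Lysosomal genes formed one of the most abundant groups, and all 27 lay above the median gene per length. Among the 100 most abundant genes of the table were 10 of them per length and 11 by scaled CPM. Together they held 3.23% ± 0.0377 of the summed level. The cysteine protease Ctss, which trims the MHC class II invariant chain, was at 2502 ± 221 scaled CPM per kb, the aspartic protease Ctsd at 1969 ± 62.6, Psap at 1399.6 ± 82.7, Ctsz at 721 ± 35.5 and the membrane protein Lamp1 at 643 ± 18.7. Ctsc, Ctsb and Ctsk followed at 489 ± 13.2, 383 ± 11.1 and 360.3 ± 53.9 scaled CPM per kb. Ctsk, a collagen-degrading protease, was lowest in replicate 1 (451, 600.4 and 583 scaled CPM), whereas Ctsb (2244, 2328 and 2378) and Ctsc (2759.7, 2913 and 2844) varied by under 3% (CV). Glycan- and lipid-cutting enzymes ranged from Hexa at 467 ± 38.4 and Asah1 at 298 ± 16.4 down to Glb1 at 27.1 ± 0.907 and Smpd1 at 13.1 ± 0.766 scaled CPM per kb.

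The proton pump that acidifies lysosomes was well expressed, with 15 of 16 subunit genes above the median gene per length. Atp6v0d2, the d2 variant of the membrane sector, was at 2094, 2120.0 and 2229 scaled CPM, and its widely expressed counterpart Atp6v0d1 at 276, 249 and 258. Per length the first was the higher, 791 ± 26.4 against 145 ± 7.68 scaled CPM per kb. Atp6ap1 and Atp6v1b2 were at 252 ± 6.44 and 190.5 ± 4.72 scaled CPM per kb. Atp6v0c, which encodes the proton-carrying ring and has processed copies, was listed at 2.98 ± 0.504.

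Iron storage outweighed iron import in transcript level. Ferritin heavy chain Fth1 and light chain Ftl1 were at 1931 ± 166 and 1822 ± 146 scaled CPM per kb and did not differ beyond their SDs. The transferrin receptor Tfrc was at 17.1, 23.4 and 28.9 scaled CPM (3.74 ± 0.952 per kb), and the iron exporter Slc40a1 at 16.6, 11.2 and 9.49. Slc11a1, the phagosomal metal transporter, was lower still at 3.75, 2.98 and 2.28 scaled CPM. Among antioxidant genes, Gpx1 was at 745 ± 57.8 scaled CPM per kb, Prdx1 at 326 ± 25.2, Txn1 at 153 ± 11.1 and Cat at 113 ± 3.55. The oxidase chains Cybb and Cyba were close to each other at 471 ± 23.6 and 461 ± 39.6 scaled CPM per kb, and the cytosolic subunits Ncf1 and Ncf4 were at 102 ± 9.06 and 36.4 ± 2.09. Nqo1, an inducible quinone reductase, was at 0.622, 0.828 and 0.972 scaled CPM. In 16 of the 23 members with a mean of at least 10 scaled CPM, replicate 1 was the lowest library. Over the 8224 genes of the table at that level, replicate 1 was the lowest in 36.0%.

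Both classes of antigen presentation genes were expressed, with a list median of 24.7 scaled CPM per kb for MHC class I and 78.9 for class II. B2m, the common light chain of class I, was at 1828 ± 178 scaled CPM per kb, and the heavy chains H2-D1 and H2-K1 at 1146 ± 4.42 and 277 ± 1.24. H2-D1 and H2-K1 were almost level over the libraries, the first at 2959, 2942 and 2963 and the second at 817, 812 and 810.4 scaled CPM. The peptide transporter genes Tap1 and Tap2 were at 8.31 ± 0.509 and 15.9 ± 0.832 scaled CPM per kb and their partner Tapbp at 154 ± 6.85. Of class II, the invariant chain Cd74 was at 964 ± 161, H2-Ab1 at 171 ± 34.7, H2-Aa at 78.9 ± 18.3 and H2-Eb1 at 71.2 ± 16.1 scaled CPM per kb. Replicate 3 was highest for these 4 genes: H2-Aa stood at 246, 274 and 378, H2-Ab1 at 369, 412 and 540.1, H2-Eb1 at 115, 127 and 174 and Cd74 at 1423, 1506 and 1927 scaled CPM. Ciita, the class II master regulator, was level at 20.2, 19.97 and 19.6 scaled CPM. In bulk libraries, fewer cells of a type and less RNA per cell cannot be told apart. Markers of other antigen-presenting cells were low in the same libraries, with a summed level of 19.2, 21.8 and 22.3 scaled CPM over 10 dendritic cell markers and 27.8, 21.2 and 19.5 over 6 B cell markers. No marker of either list was at 0 in all 3 libraries, and their part in the class II values was not tested.

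Sirpa led the costimulation and checkpoint genes. It encodes the phagocyte receptor for the do-not-eat signal CD47 and was at 562 ± 17.6 scaled CPM per kb, with Cd47 itself at 209 ± 8.296. Cd274, which encodes PD-L1, was at 312, 355 and 357 scaled CPM and the second PD-1 ligand Pdcd1lg2 at 8.25, 8.21 and 7.97. Pirb, Havcr2 and Cd200r1 were at 75.1 ± 3.49, 73.7 ± 1.395 and 59.1 ± 2.84 scaled CPM per kb. The costimulators Cd80 and Cd86 were at 3.14 ± 0.523 and 3.33 ± 1.53 scaled CPM per kb, under the median gene, and Cd40 was at 0.622, 0.976 and 0.689 scaled CPM. Cd86 was highest in replicate 3, at 7.78, 10.2 and 18.5 scaled CPM, so its libraries differed by more than 2-fold.

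Complement gene levels were split. C5ar1, the receptor for the anaphylatoxin C5a, was at 292 ± 46.1 scaled CPM per kb, the alternative-pathway stabilizer Cfp (properdin) at 119 ± 7.59 and C3 at 38.4 ± 7.48. The C1q chains, abundant in interstitial and many tissue macrophages, were low, with C1qa at 0.454, 1.32 and 1.33, C1qb at 0.454, 1.77 and 1.57 and C1qc at 0.286, 0.902 and 0.795 scaled CPM. C3ar1 was also low, at 0.319, 0.828 and 1.396 scaled CPM. Of 16 measured complement genes, 6 lay above the median gene per length.

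Receptors for antibodies were led by the shared chain Fcer1g (499 ± 49.5 scaled CPM per kb), the low-affinity Fcgr3 (302 ± 5.31) and the neonatal receptor Fcgrt (284 ± 27.4). Fcgr4 and the inhibitory Fcgr2b were at 83.9 ± 15.8 and 32.4 ± 2.53 scaled CPM per kb and the high-affinity Fcgr1 at 21.6 ± 1.49. Among microbial sensors, Tlr2 was at 413 ± 18.7 scaled CPM per kb and the lectin Clec4n (dectin-2) at 378 ± 18.1, ahead of Tlr8 (107 ± 9.08), Tlr7 (66.2 ± 3.696), Tlr4 (56.6 ± 4.12) and Tlr13 (31.8 ± 4.52). Tlr2 was at 1182, 1266 and 1289 and Tlr4 at 301, 302 and 341 scaled CPM. Tlr1, a partner of Tlr2, was low at 0.0841, 0.531 and 0.3004 scaled CPM, while the other partner Tlr6 was at 19.3, 18.98 and 19.8. Ly96, the co-receptor that Tlr4 needs for lipopolysaccharide, was at 7.04, 7.45 and 8.75 scaled CPM. Per length it was below Tlr4 but above the median gene (7.59 ± 0.872 scaled CPM per kb). Nod2 was at 2.37, 2.29 and 2.07 scaled CPM and Nod1 at 130.3, 116 and 118, so Nod1 was the higher of the pair also per length (23.9 ± 1.53 against 0.447 ± 0.0311 scaled CPM per kb).

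Of the receptors for apoptotic cells, Axl stood out. This TAM receptor kinase was at 2519, 2233 and 2247 scaled CPM (464 ± 32.1 per kb), against 109 ± 4.56 scaled CPM per kb for Mertk. Of their bridging ligands, Pros1 (protein S) was at 813, 760.3 and 829.7 scaled CPM and Gas6 at 1.597, 1.74 and 1.96. Per length Pros1 was far the higher, 196 ± 8.89 against 0.693 ± 0.0721 scaled CPM per kb. The phosphatidylserine receptor Timd4, typical of some other resident macrophages, was at or near the limit of detection, at 0.0504, 0.185 and 0.0177 scaled CPM, and Stab1 was at 0.185, 1.74 and 2.03. For Timd4 the value in replicate 3 stands for no reads. The engulfment genes Rac1, Dock2 and Elmo1 were at 214 ± 7.999, 36.3 ± 0.287 and 12.5 ± 0.138 scaled CPM per kb. Integrin chains were led by the shared beta-2 chain Itgb2 (765 ± 18.9 scaled CPM per kb), with its partners Itgax (175 ± 2.05), Itgal (88.3 ± 4.24), Itgad (6.92 ± 1.14) and Itgam (0.396 ± 0.0217) in that order. Cd44 and Itgb1 were at 250.01 ± 3.74 and 236 ± 5.64 scaled CPM per kb, a difference larger than the sum of their SDs.

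Matrix metalloproteinases were at low or moderate level. Mmp8 was at 115, 106 and 108 and Mmp19 at 83.2, 85.7 and 68.1 scaled CPM, and Mmp12, the macrophage elastase, at 18.2, 34.3 and 22.6. Mmp9 had 0 reads in replicate 1 and stood at 0.556 and 0.512 scaled CPM in replicates 2 and 3, and Mmp14 was at 0.925, 2.93 and 1.96. Membrane-bound sheddases Adam10 and Adam17 were at 56.8 ± 2.001 and 42.2 ± 1.85 scaled CPM per kb, and the cysteine protease inhibitor Cst3 at 255 ± 18.4.

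Among the genes of the chemokine and the growth factor and cytokine lists, Ccl6 and Spp1 led per length. Ccl6 was at 3273 ± 145 scaled CPM per kb, and the chemokine that followed, Cxcl2, at 202 ± 109. Ccl3 (26.6, 30.3 and 25.8 scaled CPM), Ccl9 (69.1, 115 and 77.2) and Cx3cl1 (109.9, 107 and 101) were lower also per length, and Ccl4, Ccl17, Ccl2 and Ccl24 lay under 2 scaled CPM. Spp1 (osteopontin) was at 471 ± 61.3 scaled CPM per kb. It stood at 713, 893 and 723 scaled CPM, fibronectin Fn1 at 734, 892 and 696, Il18 at 299, 306 and 345 and the interleukin 1 receptor antagonist Il1rn at 417, 409 and 455. Tgfb1, which alveolar macrophages use on themselves, was at 305, 273 and 268 scaled CPM, while Tgfb2 was at 9.43, 11.1 and 10.5. The inflammatory cytokines Tnf, Il1a, Il1b and Osm were low in replicate 1 and are described with the variable genes. Csf1 was at 1.496, 1.54 and 1.82 scaled CPM, and Csf2, Il10 and Il12b were not analysed here.

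Interferon-stimulated genes were near the median gene, with a list median of 4.10 scaled CPM per kb against 4.73 for all genes. Of 16 measured genes, 8 lay above the median gene per length and none reached 100 scaled CPM on average. Bst2 was at 24.3 ± 2.14 scaled CPM per kb and the interferon signal carrier Stat2 at 11.8 ± 0.995. Isg15, Ifit3, Usp18 and Rsad2 stood at 1.61, 2.35, 1.35 and 1.75 scaled CPM on average. Rsad2, an antiviral enzyme, was at 0.656, 3.298 and 1.29 scaled CPM and highest in replicate 2.

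Transcripts of dividing cells were present. Of 22 cell cycle genes, 20 lay above the median gene per length, with a list median of 9.77 scaled CPM per kb against 4.73 for all genes. Replication genes led, with Pcna at 36.5 ± 3.41, Mcm6 at 32.5 ± 2.82 and Rrm2 at 27.1 ± 0.873 scaled CPM per kb, and the mitotic cyclin Ccnb2 was at 26.6 ± 1.39. Other mitotic genes were lower, with Top2a (DNA topoisomerase II) at 9.56 ± 0.507, Cdk1 at 4.89 ± 0.213 and Mki67 (the Ki-67 antigen) at 5.13 ± 0.536 scaled CPM per kb. Mki67 was at 56.5, 52.6 and 45.9 scaled CPM. Clock genes lay mostly below the median gene (4 of 16 above it). Arntl, the core activator BMAL1, was level at 31.4, 29.6 and 30.4 scaled CPM, and the output gene Dbp was at 0.387, 0.161 and 0.265. Per1, a core repressor that is also induced by glucocorticoids, was higher in replicate 1, at 41.4, 18.7 and 19.00 scaled CPM.

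Genes of the respiratory chain differed in their spread by the genome that encodes them. The 24 nuclear genes had a median CV of 5.69% and a summed level of 4073, 3980 and 4256 scaled CPM. The 7 mitochondrially encoded mRNAs of the table had summed levels of 3510, 5573 and 4520 scaled CPM, and all 7 were lowest in replicate 1, against 36.0% of all genes with a mean of at least 10 scaled CPM. The mean sum was 4534 scaled CPM over the 3 libraries and 5047 without replicate 1. Mt-Co1, a cytochrome oxidase subunit, was at 1186, 1728 and 1404 and mt-Cytb at 1023, 1798 and 1449 scaled CPM. The 24 ribosomal protein genes, with many processed copies in the genome, had a median of 36.2 scaled CPM per kb and were lowest in replicate 1 in 21 cases, to be read against the same 36.0%. That share covers genes of all lengths, and short genes were slightly lower in replicate 1, as given below. Among genes often used for reference, Actb was lowest in replicate 1 and highest in replicate 3 (4848, 5379 and 6044 scaled CPM), Gapdh was at 471, 504 and 558 and Gusb, a lysosomal enzyme, at 529, 507 and 517. Gusb had the smallest CV (2.12%) of the 14 reference genes, against 11.05% for Actb. Genes with a short combined exon length were slightly lower in replicate 1: for the shortest of 5 length bins (1645 genes of 243 to 2751 bases) the median log2 deviation from the gene's mean was −0.04, −0.01 and 0.05.

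**Figure D3:**
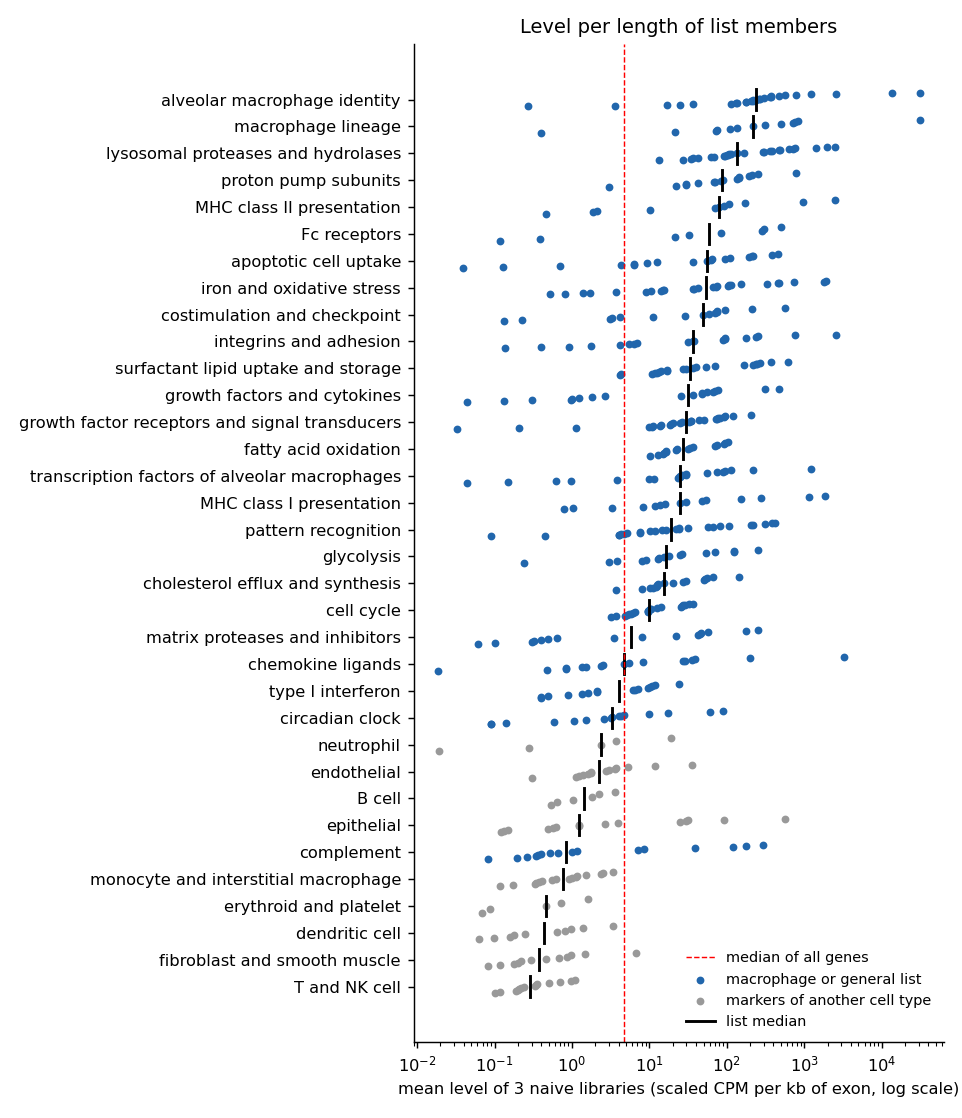
Mean scaled CPM per kb of exon (log scale) of each list member, with the list median as a black bar and the median of all genes (4.73) as a dashed line. Identity and lysosomal lists lie far to the right of the dashed line, and the marker lists of other cell types drawn (gray, lists with at least 3 measured genes) have medians to its left.

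Markers of other cell types that the table held were scarce, apart from a few genes. It held 14 of 16 T and NK cell, 16 of 18 monocyte and interstitial macrophage and 6 of 10 B cell markers chosen. Of the erythroid and platelet, neutrophil, and eosinophil and mast cell markers it held 5 of 10, 5 of 11 and 1 of 9. Markers absent from the table have no value here and add nothing to the sums. The 14 T and NK cell markers summed to 11.3, 12.2 and 10.5 scaled CPM, and none lay above the median gene per length. The 5 erythroid and platelet genes summed to 2.84, 2.80 and 2.74, and the 16 genes of monocytes and interstitial macrophages to 45.6, 50.5 and 52.9 scaled CPM. Ccr2, the monocyte chemokine receptor, led the latter at 16.5, 16.4 and 15.5 scaled CPM, while Ly6c2, which defines classical monocytes, was at 0.756, 1.35 and 1.01. Neutrophil markers were led by Csf3r (77.5, 59.2 and 67.7 scaled CPM), the G-CSF receptor, with the granule genes S100a8 at 2.101, 2.98 and 2.56, S100a9 with 0 reads in replicate 1 and 0.147 on average, and Ltf at 0.0657. These granule genes were therefore low beside Csf3r, also per length. Siglece was the 1 measured gene of the eosinophil and mast cell list, at 78.6, 68.3 and 66.96 scaled CPM.

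Some endothelial and epithelial markers, like Csf3r and Siglece, lay above the median gene per length. Of 14 endothelial markers these were 3, the receptors Calcrl and Flt1 and the tight junction gene Cldn5 (6.37, 8.07 and 7.83 scaled CPM). Calcrl and Flt1 were at 166, 171 and 176 and 155, 169 and 154 scaled CPM, with CVs of 2.99% and 5.03%. The other 11, among them Vwf, Pecam1 and Cdh5, lay below it. Vwf stood at 50.4, 71.6 and 52.9, Pecam1 at 11.1, 24.3 and 20.9 and Cdh5 at 4.12, 6.26 and 5.001 scaled CPM. The 14 endothelial markers summed to 459, 578 and 523 scaled CPM, and the 12 fibroblast and smooth muscle markers to 24.98, 58.2 and 59.1, so both were lowest in replicate 1. Without replicate 1 the mean sums were 550.4 and 58.6 scaled CPM, against 519.9 and 47.4 with it. The 15 measured epithelial markers summed to 1455, 1453 and 1465 scaled CPM. Most of this came from Krt19 (1090.4, 1027 and 1029.8 scaled CPM), a gene also described above among the identity genes. Krt19, Epcam (185, 202 and 216) and Cdh1 (153, 152 and 131) were expressed with CVs of at most 8.56%. In the same libraries the keratins Krt8 and Krt18, partners of Krt19 in epithelium, were low, at 0.118, 0.333 and 0.336 and 0.185, 0.333 and 0.124 scaled CPM. Sftpc, the surfactant protein of type II cells, was at 11.1, 43.4 and 23.4 scaled CPM, and Sftpb at 0.521, 1.54 and 0.831. Sftpc was highest in replicate 2, and Sftpa1 too (2.77, 12.3 and 7.48). The club cell genes Scgb1a1, Cyp2f2 and Scgb3a2 were instead highest in replicate 3, with Scgb1a1 at 2.57, 3.298 and 36.1, Cyp2f2 at 1.29, 0.6299 and 5.53 and Scgb3a2 at 0.0841, 0.2100 and 1.33 scaled CPM. Without replicate 3 the mean level of Scgb1a1 was 2.93 scaled CPM, against 13.99 with it.

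The libraries agreed closely for most genes, and the remaining spread was larger than counting error. The median CV was 9.37% over all 12701 genes and 6.89% over the 8224 with a mean of at least 10 scaled CPM. For the 93 genes at 1000 scaled CPM or more the median CV was 5.01%, where counting alone gives 0.461%, and for the 1828 genes under 1 it was 46.2%, where counting gives 28.1%. A chi-square test of the reads of each gene over the 3 libraries (expected reads of at least 5, Benjamini-Hochberg adjusted p under 0.05) found a spread beyond counting error for 7875 of 12380 genes (63.6%). By level this was 97.8% of genes at 1000 or more, 65.6% of those from 10 to 100 and 43.3% of those under 1 scaled CPM. The test sets the libraries against read-sampling noise alone and treats amplified reads as independent, so its calls follow depth and compare these libraries only. Without replicate 1 the count was 4839. The common biological coefficient of variation of edgeR, the spread left once counting error is taken off, was 13.3% and fell to 10.1% without replicate 1.

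**Figure D4:**
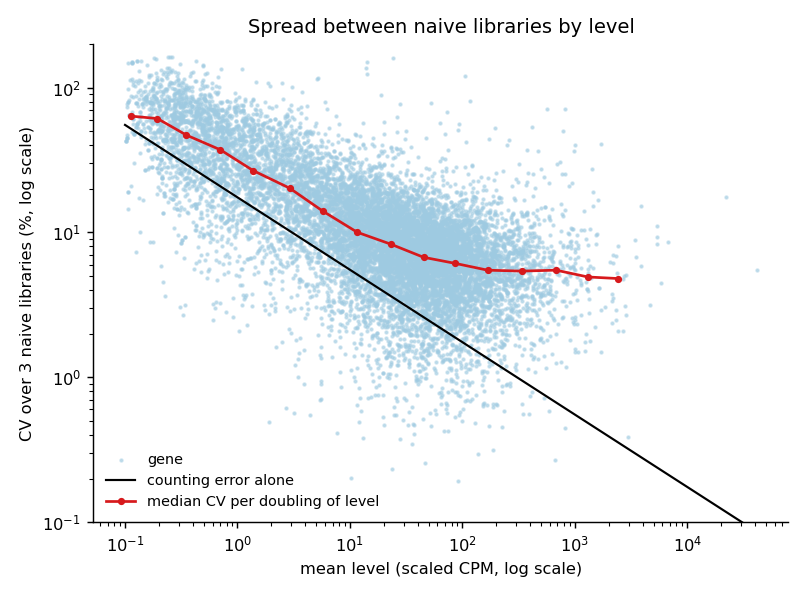
CV over the 3 naive libraries (%, log scale) against the mean scaled CPM (log scale), 1 point per gene above 0.1 scaled CPM. The red line gives the median CV per doubling of level and flattens near 5%, while the black line, counting error alone, keeps falling.

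Gene groups differed in this spread. Median CVs were lowest for the glycolysis (3.81%), cell cycle (5.26%), proton pump (5.28%) and lysosomal (5.56%) lists. Over all genes the median CV was 5.56% at 100 to 1000 scaled CPM and 7.42% at 10 to 100. The proton pump and lysosomal lists, with median levels of 279 and 903 scaled CPM, were thus near all genes of their level. The glycolysis and cell cycle lists, with median levels of 68.2 and 45.6 scaled CPM, had CVs below that of their level. All 24 ribosomal protein genes and all 24 nuclear respiratory genes had a CV under 10%, which 73.7% of the 8224 genes with a mean of at least 10 scaled CPM also had. Median CVs were highest for immediate-early genes (33.8%), growth factors and cytokines (32.9%) and chemokine ligands (29.8%) among the lists with a median level above 10 scaled CPM. The 5 steadiest genes with a mean of at least 100 scaled CPM were Rab1a, a GTPase of transport from the endoplasmic reticulum (445, 446 and 445 scaled CPM), Lcp1, Alox5, Erbin and Ppp3r1. Alox5, the 5-lipoxygenase that starts leukotriene synthesis, was at 666, 663 and 666 scaled CPM. Erbin, an adaptor at the membrane, and Ppp3r1, the calcineurin regulatory subunit, were at 137, 138 and 137 and 187, 187 and 186 scaled CPM.

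Few genes differed by 2-fold or more between naive libraries, and most of them were low in replicate 1. The highest library was at least 2-fold above the lowest for 56 of 8224 genes with a mean of at least 10 scaled CPM (0.681%), on values with a pseudocount of 1 added. Replicate 1 was the lowest library in 46 of the 56 and the highest in 8, against 36.0% and 37.7% of all 8224 genes. Over all 8224, replicates 2 and 3 were lowest in 32.7% and 31.4% and highest in 26.2% and 36.1%. Without replicate 1, 5 genes passed the same limit, with the mean level taken anew from replicates 2 and 3. Of the 56, the 6 that also differed 2-fold between replicates 2 and 3 were Bcl3, Cxcl3, Gm10800, Gm10801, Nbeal2 and Scgb1a1, a list taken after their values were seen. Markers of other cell types were also among the 56. At a mean of at least 10 scaled CPM these were 3 of 8 endothelial, 2 of 2 fibroblast and smooth muscle and 2 of 5 epithelial markers. Over all 8224 genes the share was 0.681%. Replicate 1 was the lowest library in 6 of the 8, 2 of the 2 and 3 of the 5, against 36.0% of the 8224.

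Immediate-early genes, which respond rapidly to stimuli, were 9 of these 56. Of 24 measured members, 20 had a mean of at least 10 scaled CPM. Of these 20, 9 differed by 2-fold or more, against 0.681% of all 8224 genes at that level. Replicate 1 was the lowest library in 17 of the 20, against 36.0% of the 8224. The summed level of the 24 members was 5762, 11247 and 10671 scaled CPM, so replicate 1 was at 0.526 of the mean of the others. The mean sum was 9227 scaled CPM over the 3 libraries and 10959 without replicate 1. Egr1, a zinc finger factor, was at 105, 844 and 742 scaled CPM and Fosb, an AP-1 subunit, at 9.09, 91.1 and 56.7. Fos was at 921, 2224 and 1994, Junb at 568, 1205 and 1175 and Ier2 at 332, 1005 and 1026 scaled CPM. Without replicate 2 the mean of Fosb was 32.9 scaled CPM, against 52.3 with it. Members that did not follow this order were Ier5 at 328, 302 and 308, Fosl2 at 97.5, 96.2 and 92.8 and Ier3 at 13.7, 8.09 and 12.9 scaled CPM, each highest in replicate 1. Heat shock genes went the other way, with sums of 4018, 3000 and 3073 scaled CPM and 9 of 13 members highest in replicate 1, against 37.7% of all genes at that level. Their mean sum was 3364 scaled CPM over the 3 libraries and 3037 without replicate 1. Mitochondrially encoded mRNAs and markers of fibroblasts and endothelium, given above, were lowest in the same library, and their part in these differences was not tested.

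Replicate 1 was the lowest library in 9 of 12 growth factor and cytokine genes and in 6 of 9 chemokine genes with a mean of at least 10 scaled CPM, against 36.0% of all genes at that level. Tnf was at 16.6, 204 and 127 scaled CPM, and its mean without replicate 2 was 71.8 against 116 scaled CPM with it. The neutrophil-attracting chemokines were at 16.9, 110.0 and 90.1 (Cxcl1), 168, 605 and 478 (Cxcl2) and 5.900, 37.98 and 12.9 scaled CPM (Cxcl3). Il1a was at 39.99, 144 and 95.8, Il1b at 32.8, 98.3 and 78.1 and Osm at 56.2, 126 and 140.3 scaled CPM. In each of these genes replicate 1 was the lowest and lay apart from the other libraries by 2-fold or more. The feedback inhibitors of NF-kappaB were low in the same library, Nfkbia at 138, 361 and 273 and Tnfaip3 at 92.7, 244 and 179 scaled CPM, and Nfkbiz, a nuclear cofactor of NF-kappaB, stood at 6.14, 48.5 and 28.3 (mean 17.2 without replicate 2, 27.6 with it). Ccl6 (5574, 6007 and 6044 scaled CPM) and Il18 (299, 306 and 345) varied less, and Ccl3 and Cx3cl1, given above, were not lowest in replicate 1.

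The promoters of Cxcl1, Cxcl2, Cxcl3 and Nfkbia are shown because they were the 4 of 32 genes in this group (2-fold, lowest in replicate 1, with a RefSeq promoter entry) that held the kappa B motif, GGGA followed by any base and TTTCC. They are again the 250 bases before the start on the gene's strand, at chr5:90890995-90891244, chr5:90903649-90903898, chr5:90785851-90786100 and chr12:55492648-55492897 (GRCm38.p6). Capitals mark this motif, in Nfkbia its reverse complement, and TATAAA in Cxcl3.
Cxcl1: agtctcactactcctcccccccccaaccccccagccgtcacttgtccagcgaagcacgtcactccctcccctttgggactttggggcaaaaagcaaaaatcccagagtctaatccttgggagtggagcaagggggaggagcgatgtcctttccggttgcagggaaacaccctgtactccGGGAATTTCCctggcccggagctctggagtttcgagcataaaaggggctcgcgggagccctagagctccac
Cxcl2: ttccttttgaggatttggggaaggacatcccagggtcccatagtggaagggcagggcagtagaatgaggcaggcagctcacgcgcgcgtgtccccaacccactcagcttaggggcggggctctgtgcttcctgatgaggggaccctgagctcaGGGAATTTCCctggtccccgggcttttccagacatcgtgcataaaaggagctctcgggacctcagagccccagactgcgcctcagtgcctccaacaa
Cxcl3: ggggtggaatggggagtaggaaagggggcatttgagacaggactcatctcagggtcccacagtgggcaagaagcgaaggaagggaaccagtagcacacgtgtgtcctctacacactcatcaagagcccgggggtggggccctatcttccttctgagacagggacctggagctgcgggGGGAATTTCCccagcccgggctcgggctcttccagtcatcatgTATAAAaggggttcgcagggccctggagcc
Nfkbia: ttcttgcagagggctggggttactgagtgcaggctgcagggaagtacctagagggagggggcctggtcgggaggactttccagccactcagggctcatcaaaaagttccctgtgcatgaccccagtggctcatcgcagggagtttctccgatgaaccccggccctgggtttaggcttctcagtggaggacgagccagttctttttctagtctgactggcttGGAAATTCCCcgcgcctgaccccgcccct
The matches began 71, 97, 73 and 29 bases before the start. The kappa B motif, searched on both strands, was found in 49 of the 10055 genes (0.487%), in 1 of the 81 most abundant per length (1.23%, B2m) and in 4 of these 32 (12.5%). TATAAA was found in 7 of the 32 (21.9%; Cxcl3, Fos, Gadd45b, Il1a, Il1b, Inmt and Tnf) and in 2.30% of all. The cyclic AMP element TGACGTCA was found in 2 of the 32 (6.25%) and in 3.02% of all. The genes were picked for their spread, so these shares describe them and were not tested.

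A small set was high in replicate 1. Hspa1a and Hspa1b, the stress-induced HSP70 genes, were at 38.9, 1.32 and 2.53 and 68.9, 1.84 and 1.54 scaled CPM, and without replicate 1 their means were 1.92 and 1.69. They share 58.8% of the 50-base windows of Hspa1a transcripts, so their reads cannot be told apart with certainty. Constitutive HSP70 Hspa8 was also highest there, at 926, 542 and 611 scaled CPM. Tsc22d3, the glucocorticoid-induced leucine zipper GILZ, was at 1474, 393 and 568 scaled CPM. Irf2bp2, a transcriptional cofactor, and Per1 were also highest in replicate 1, Irf2bp2 at 364, 174 and 212 scaled CPM. Of other genes known to respond to glucocorticoids, Fkbp5 was at 91.1, 80.3 and 83.6 and Sgk1 at 2474, 2378 and 2454 scaled CPM. Both were also highest in replicate 1, with CVs of 6.46% and 2.07%. A part of glucocorticoids in these values was not tested. Tsc22d3, Irf2bp2, Fkbp5 and Sgk1 were chosen after their values were seen. Gm10800 and Gm10801, predicted genes that share 11.6% of windows, were at 247, 62.9 and 5.001 and at 33.97, 7.65 and 0.583 scaled CPM, a different order in which replicate 3 was lowest. Without replicate 1 their means were 34.0 and 4.11 scaled CPM.

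**Figure D5:**
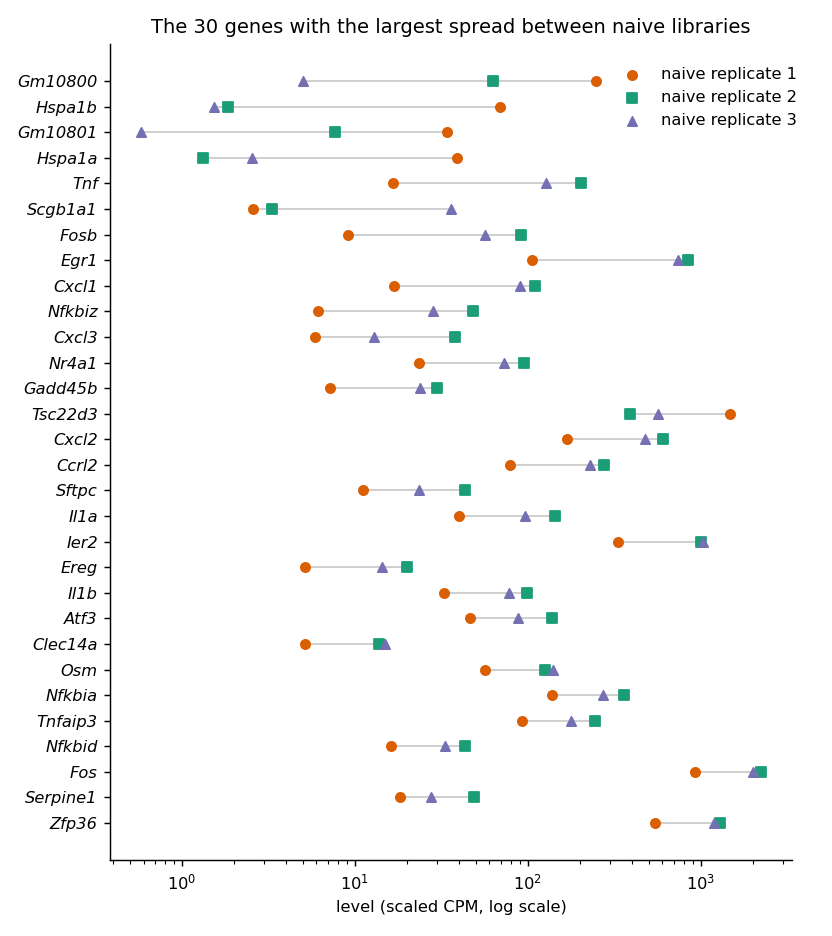
Scaled CPM (log scale) of the 30 genes with the largest spread of log2 level over the naive libraries, 1 symbol per library joined by a line. Replicate 1 (circles) lies to the left of the other libraries for most genes, including Tnf, Egr1, Cxcl1 and Fos, and to the right for Gm10800, Gm10801, Hspa1a, Hspa1b and Tsc22d3.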

How the data were processed

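RNA sequencing of 3 naive alveolar macrophage libraries was analysed. Per the submitters' processing notes, STAR 2.5, the mm10 build and edgeR were used, while no source used here gives the counting program, the annotation or the use of strand. The deposited values are a signal per gene, scaled by the authors from counted reads. They equal (reads + 0.5) divided by (effective library size + 1), scaled as CPM, and came out as whole reads within a tolerance of 0.001. Of 12701 genes, 12698 matched GENCODE vM21 (54 through a synonym), whose combined exons gave lengths. Aldoa, Tle5 and Map11 were unmatched. All value columns of the table belong to a labelled group (0 without one).

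Spread was tested per gene with a chi-square test on the recovered reads (Python 3.11.15, scipy 1.17.1) and the steps were tested on simulated data. The biological coefficient of variation came from edgeR 4.0.16 (R 4.3.3), and size factors for an alternative from DESeq2 1.42.0. The naming rule took the 4 markers, the 20 highest levels, the 10 highest per length, the 3 highest members of each of 42 lists with further members by role, the 10 most variable genes (mean at least 10) and the 5 steadiest (mean at least 100). Members and lists were chosen with earlier results of these data known. Libraries held 28525078, 38561195 and 27465745 reads. Values of some list members are not reported here.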

Additional observations from a re-analysis of the deposited data

How the results depend on the processing

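Levels, ranks by level and list sums kept their values within the spread between libraries under TMM and median-of-ratios scaling. Dividing by exonic length, or by median transcript length (chosen after seeing the data), raised the share held by the first 10 genes from 10.9% to 22.3% or 17.0%, raised that of the first 100 from 25.7% to 38.8% or 35.1%, and lowered the genes needed for 50% from 608 to 260 or 334. With at least 10 reads in every library the median CV was 8.53% and the lowest Pearson correlation 0.991, as it was with a pseudocount of 0.5. Leaving out 1 library at a time gave a median CV of 7.07% to 8.67%, a biological coefficient of variation of 10.1% to 15.2%, a lowest Spearman correlation of 0.992 to 0.995, a lowest Pearson correlation of 0.993 to 0.995, 4839 to 5591 genes beyond counting error and 5 to 48 genes with 2-fold spread, the lowest count in both cases being that without replicate 1. Among ranks of named genes, 114 moved and 23 did not when levels were divided by exonic length, and 113 moved and 24 did not with median transcript length. No paired analysis was possible because a single group was described and no groups were compared. Depth limits genes under 1 scaled CPM, where counting error is a large share of the CV. With 3 libraries, each SD is itself imprecise.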
